A study of Glycine max with 63 samples.

Results

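SWEET10a (GLYMA_15G049200) and SWEET10b (GLYMA_08G183500) are a pair of soybean sugar transporter genes. They were chosen by their identifiers and not by their measured values, and are 2 of the 55897 soybean genes listed in the count tables. Both were followed in 63 RNA-seq libraries of soybean seeds and embryos that filled their reserves with or without Arabidopsis oil genes. The study added AtWRI1, which switches on genes for making fatty acids, and AtDGAT, the acyltransferase that completes storage oil, and asked how oil and carbohydrate in the seed respond. In the field, 27 libraries covered the lines WD-1 and W-1 and their parent cultivar Thorne (WT) at the stages R5, R5/6 and R6, with 3 libraries per line and stage. R5 is the stage at which seeds begin to fill and R6 that at which green seeds fill the pod. Each field library held RNA of 4 bulked seeds, and the 3 plots of a group were separate. In the greenhouse, 36 libraries were labelled WD-1, WD-2 or WT and 24, 27, 30 or 33 days after pollination (DAP), with 3 libraries per label. Each greenhouse library came from 1 embryo of 1 plant, from which the seed coat and the endosperm had been peeled. The labels do not say which transgenes W-1, WD-1 and WD-2 hold, or which promoters drive them.

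SWEET proteins sit in membranes and let sugars move down their concentration gradient, in either direction. In the soybean seed, sucrose arrives in the seed coat and has to leave its cells before the embryo can take it up, since no plasmodesmata join the coat to the embryo. SWEET10a and SWEET10b are known as homologous copies that move sucrose and hexoses on this route, and their loss lowers seed size and oil while it raises protein. SWEET10a is also known as a target of selection during soybean domestication.

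The greenhouse files carry names that sort the same libraries into other groups than the labels do: the lines R, G and Wt at the times T2, T3, T4 and T5, with 3 libraries each. What R, G and the times stand for is not given in the sources used here. AtWRI1 reads show which of the 2 sortings goes with the transgene. Counted as present above 10 counts per M (CPM), AtWRI1 went with the label in 23 of 36 greenhouse libraries and against it in 13. It went with the file name in 35 of 36. The 12 R libraries held 39.0 to 324 CPM of AtWRI1 and 11 G libraries held 185 to 320 CPM, while the 12 Wt libraries held at most 0.408 CPM. The same libraries also held AtDGAT, at 6.11 to 51.6 CPM in R and 25.1 to 58.8 CPM in G. Wt libraries held at most 0.117 CPM of AtDGAT. The exception was G T5 replicate 2, with 0 AtWRI1 and 0 AtDGAT counts, which at its total of 5.82 M counts (1 M is 1000000) allows up to 0.516 CPM. In the field, the measured AtWRI1 values of both lines did not overlap with those of WT. AtWRI1 was at 4.80 to 250 CPM in WD-1 and at 1.86 to 150 CPM in W-1, against 0 to 0.398 CPM in WT. In WT R6 replicate 2, however, 0 counts allow up to 2.56 CPM, which is above the lowest W-1 library. Of the 18 libraries of the lines, 4 lay under 10 CPM, all of them at R5. AtDGAT was at 0.201 to 33.2 CPM in WD-1, and W-1 and WT had 0 AtDGAT counts in all their libraries, which allows up to 1.46 CPM in a W-1 library and up to 2.56 CPM in a WT library. Greenhouse results are therefore given by file name, and once by label. AtWRI1 reads check the line in the file name and not its time number. By label, Wt libraries were at 24 DAP at T2 to T4 and at 27 DAP at T5. G libraries were labelled 27 DAP at T2 and T3 and 30 DAP at T4 and T5. R libraries were labelled 30 DAP at T2 and 33 DAP at T3 to T5. No 2 lines carry the same labelled day at any time number, so line and labelled day cannot be told apart there.

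Reads of the 2 copies were shared between them in the deposited counts. Estimated counts of SWEET10a alone were whole numbers, within 0.05, in 5 of 63 libraries and those of SWEET10b alone in 6, while their sum was whole in 63 of 63. Levels of a single copy carry this division of reads, and their sum does not. The sum ran from 246 to 19718 counts per library. SWEET10a's share of that sum had 95% Wilson intervals 0.929 to 11.1 percentage points wide, which cover counting error only. Shares are of counts and are not corrected for gene length. Library totals ran from 1.17 to 36.2 M counts in the field, with 10 libraries under 10 M, and from 3.02 to 23.6 M in the greenhouse, with 5 under 10 M.

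As field seeds filled, the balance between the copies moved toward SWEET10a in all 3 genotypes. SWEET10a made up 10.7 to 16.6% of the pair's counts in the 9 libraries at R5, 17.8 to 33.1% in the 9 at R5/6 and 22.1 to 40.4% in the 9 at R6. Every R5 library lay below every library of both later stages, while R5/6 and R6 overlapped. The ratio of SWEET10a to SWEET10b was 2.50-fold higher at R6 than at R5 (exact permutation test over 18 libraries, 2-sided p = 4.11e-05, the smallest this test can give, adjusted p = 0.000104 over 5 ratio tests).

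By genotype, SWEET10a held 29.8, 27.1 and 22.1% of the pair in WD-1 at R6 and 14.1, 12.6 and 10.7% at R5. In W-1 it held 26.8, 40.4 and 28.8% at R6, against 15.9, 16.6 and 13.4% at R5. In WT it held 24.9, 27.7 and 28.2% at R6, against 14.01, 12.7 and 13.2% at R5. The 3 R6 libraries lay above the 3 R5 libraries in each genotype. A ratio within a library does not depend on how libraries are scaled, but it cannot say which copy moved.

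**Figure D1:**
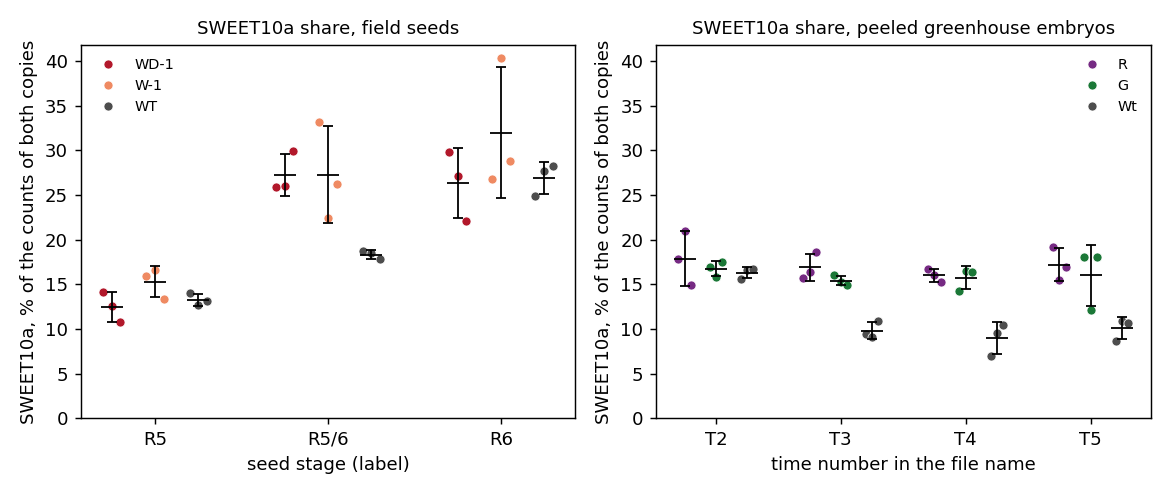
SWEET10a as a percentage of the summed counts of SWEET10a and SWEET10b, by stage in the field and by file-name time in the greenhouse. Points are libraries and bars are the mean ± SD of 3. The field values at R5 (10.7 to 16.6%) lie below all those at R6 (22.1 to 40.4%), and Wt embryos lie at 6.96 to 10.9% from T3 to T5, below all R and G embryos of those times.

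The separate levels of the copies, as CPM scaled by the trimmed mean of M-values (TMM CPM), passed the threshold for SWEET10a in WD-1 and for SWEET10b in W-1 and WT. In WD-1, SWEET10a was at 92.3, 64.1 and 70.1 TMM CPM at R6 and at 33.8, 49.3 and 15.9 TMM CPM at R5, so that the stages did not overlap. Its level was 2.24-fold higher at R6 (log2 difference 1.16 ± 0.31 SE, adjusted p = 0.0052, edgeR quasi-likelihood test). SWEET10b in WD-1 was at 218, 172 and 248 TMM CPM at R6 and at 206, 341 and 131 TMM CPM at R5. These overlapped widely, with a log2 difference of -0.09 ± 0.36 (adjusted p = 0.88). Between R6 and R5 of WD-1, 35.6% of all genes tested were called. The SWEET10a rise in WD-1 was 0.62 with an adjusted p of 0.118 when only libraries over 10 M counts were kept, which leaves 2 WD-1 libraries at R5 and 1 at R6 and assumes that the lone library varies like the other groups.

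SWEET10b fell in W-1 and WT. The change of the WD-1 effect between the stages, which sets WD-1 against WT, was itself not called for either gene (edgeR adjusted p = 0.42 and 0.54, 1.22% of all genes called). SWEET10b was at 162, 95.5 and 137 TMM CPM in W-1 at R6 and at 292, 214 and 265 TMM CPM at R5, with no overlap. It was 1.95-fold lower at R6 (log2 difference -0.97 ± 0.37, adjusted p = 0.0373 in edgeR, 41.1% of all genes called). In WT, SWEET10b was at 230, 239 and 87.2 TMM CPM at R6 and at 298, 473 and 312 TMM CPM at R5, again without overlap. It was 1.97-fold lower at R6 (-0.98 ± 0.37, adjusted p = 0.0429 in edgeR, 33% of all genes called).

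Both falls rest on few libraries. The W-1 fall missed the threshold without replicate 1 or 3 of R5 or replicate 2 or 3 of R6, with edgeR adjusted p-values of 0.0981, 0.0774, 0.167 and 0.0674. The WT fall missed it without replicate 2 of R5 (-0.74, adjusted p = 0.169), replicate 3 of R5 (adjusted p = 0.0505) or replicate 3 of R6 (-0.63, adjusted p = 0.267), and in a fit of only the libraries compared (adjusted p = 0.0699). WT R6 replicate 3, the lowest of its group at 87.2 TMM CPM, is also its deepest library, with 27.2 M counts against 2.51 and 1.17 M in replicates 1 and 2. In the fit of only libraries over 10 M counts, which leaves that library alone at R6 of WT, SWEET10b differed by -2.05 on the log2 scale. The spread at R6 is then taken from the other groups, so that this value rests on 1 library.

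SWEET10a gave smaller stage differences in these genotypes. It was at 59.2, 64.6 and 55.4 TMM CPM in W-1 at R6 and at 55.1, 42.6 and 40.9 TMM CPM at R5, and in WT at 76.4, 91.4 and 34.3 TMM CPM at R6 and at 48.6, 68.7 and 47.3 TMM CPM at R5. The W-1 stages stood apart by a narrow gap and the WT stages overlapped. Their log2 differences were 0.39 ± 0.31 (adjusted p = 0.34) and 0.23 ± 0.32 (adjusted p = 0.62). With TMM, the sum of both copies did not pass the threshold between R6 and R5 in any genotype. Its log2 differences were 0.15, -0.66 and -0.73 in WD-1, W-1 and WT (edgeR adjusted p = 0.775, 0.129 and 0.11).

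Stage levels also depend on the scaling of libraries. In R6 seeds the 10 most abundant genes held 38.0 to 55.5% of all counts, against 15.3 to 33.4% in R5 seeds. With library totals in place of TMM, the median log2 difference of all genes between R6 and R5 came out lower than with TMM by 0.73, 1.20 and 1.02 in WD-1, W-1 and WT. On that scale SWEET10a was at a log2 difference of 0.42 in WD-1 (adjusted p = 0.354), -0.86 in W-1, which turns its direction, and -0.78 in WT, which turns it too. Relative to the median of all genes on the same scale, these were 1.23, 0.40 and 0.31. With library totals the sum of both copies was called lower at R6 in W-1 and WT, and its direction turned in WD-1.

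**Figure D2:**
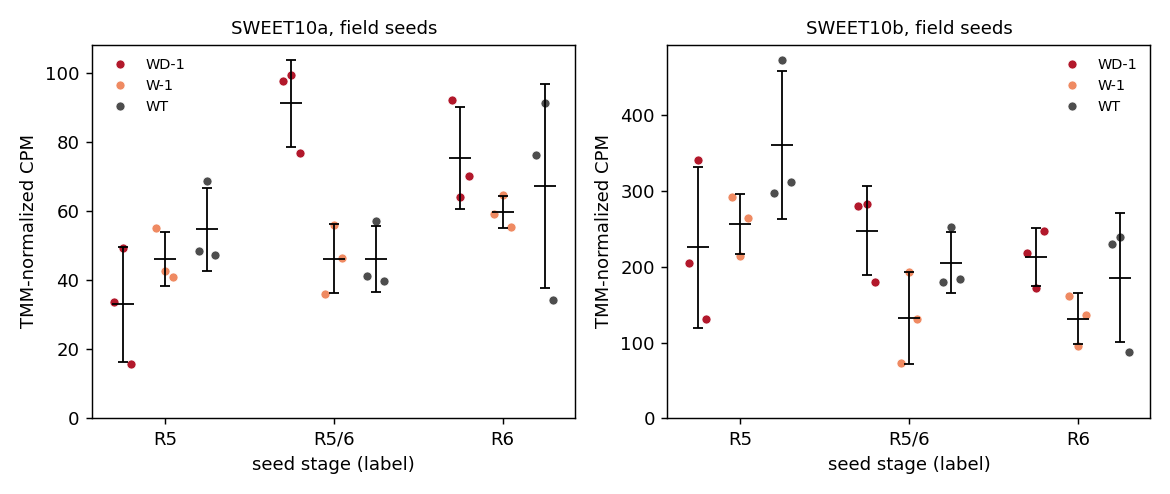
TMM CPM of SWEET10a and SWEET10b in the 27 field libraries, by stage and genotype. Points are libraries and bars are the mean ± SD of 3. SWEET10a in WD-1 runs from 15.9 to 49.3 at R5 and from 64.1 to 92.3 at R6, and SWEET10b in WT from 298 to 473 at R5 and from 87.2 to 239 at R6; with library totals the SWEET10a difference turns direction in W-1 and WT.

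At the intermediate stage R5/6, WD-1 held the highest mean SWEET10a level of the field groups, though it overlapped with R6 libraries. SWEET10a was at 97.8, 99.4 and 76.8 TMM CPM in WD-1 and at 36.1, 56.2 and 46.5 TMM CPM in W-1, against 41.3, 57.2 and 39.9 TMM CPM in WT. All 3 WD-1 libraries lay above the other 6. The log2 difference of WD-1 from WT was 0.99 ± 0.31, which missed the threshold in the model of all field libraries (edgeR adjusted p = 0.10, with 1.7% of all genes called). It passed in a fit of only the libraries compared (1.01, adjusted p = 0.0287) and in one of only libraries over 10 M counts (1.11, adjusted p = 0.0142). SWEET10b at R5/6 was at 280, 283 and 180 TMM CPM in WD-1 and at 72.7, 194 and 131 TMM CPM in W-1, against 180, 252 and 184 TMM CPM in WT. WD-1 and WT overlapped, and the log2 difference was 0.27 ± 0.36.

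In the model of all field libraries, no comparison of a line with WT or between the lines called either gene. Over the 3 stages, WD-1 against WT gave log2 differences of 0.17 ± 0.18 for SWEET10a and -0.06 ± 0.21 for SWEET10b (edgeR adjusted p = 0.78 and 0.98, 3.05% of all genes called). W-1 against WT gave -0.12 ± 0.18 and -0.54 ± 0.21 (adjusted p = 0.86 and 0.22, 2.53% called). WD-1 against W-1 gave 0.29 ± 0.18 and 0.48 ± 0.21 (adjusted p = 0.59 and 0.39, 0.555% called). At single stages, WD-1 against WT gave -0.71 ± 0.31 for SWEET10a and -0.67 ± 0.36 for SWEET10b at R5 (adjusted p = 0.62 and 0.74, 0.177% called) and 0.22 ± 0.32 and 0.22 ± 0.37 at R6 (adjusted p = 0.88 and 0.91, 3.24% called). SWEET10a in W-1 differed from WT by -0.26, -0.02 and -0.10 at R5, R5/6 and R6, and SWEET10b by -0.49, -0.64 and -0.48, none of them called, where 0.0385, 0.123 and 4.44% of all genes were. With only libraries over 10 M counts, which leaves WT R6 with replicate 3 alone, W-1 against WT at R6 turned to 0.85 for SWEET10a and 0.56 for SWEET10b. The share of all genes at unadjusted p under 0.05 was not counted, so that passes at that level say little of these 2 genes. At unadjusted p under 0.05 in edgeR, SWEET10a in WD-1 passed at R5 (unadjusted p = 0.0285) and R5/6 (unadjusted p = 0.0034) and in its change between R5 and R6 (unadjusted p = 0.0464), and SWEET10b passed for W-1 against WT over stages (unadjusted p = 0.0174) and for WD-1 against W-1 (unadjusted p = 0.0327). The change of the WD-1 effect between R5 and R6 was 0.93 ± 0.45 for SWEET10a and 0.89 ± 0.52 for SWEET10b in the same test. For W-1 it was 0.15 ± 0.45 and 0.01 ± 0.52 (adjusted p = 0.96 and 1, 1.69% called).

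The ratio of the copies differed between the lines and WT. Taken over the stages, it was 1.24-fold higher in the 18 WD-1 and W-1 libraries than in the 9 WT libraries (exact permutation within stages, 2-sided p = 0.0196, adjusted p = 0.0245 over 5 ratio tests). The groups were apart at R5/6, where SWEET10a held 25.9, 26.0 and 29.9% of the pair in WD-1 and 33.1, 22.5 and 26.2% in W-1, against 18.7, 18.5 and 17.8% in WT. They overlapped at R5 and R6. With only libraries over 10 M counts the exact permutation test gave p = 0.0875 for a log2 difference of the ratio of 0.37, against 0.31 over all field libraries.

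Both genes were also read in peeled embryos of the greenhouse, which lack the seed coat. All 36 embryo libraries held both, at 13.1 to 99.2 TMM CPM for SWEET10a and 173 to 488 TMM CPM for SWEET10b. Whether traces of seed coat contributed was not tested: marker genes of the coat could not be tied to the identifiers of the tables. In bulk tissue, fewer cells of a type and less RNA per cell cannot be told apart.

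In Wt embryos SWEET10a fell over the file-name times. It was at 51.7, 47.0 and 53.0 TMM CPM at T2, at 27.1, 27.0 and 30.6 at T3, at 13.1, 21.1 and 34.0 at T4 and at 16.9, 21.2 and 26.7 at T5. The T2 libraries stood above all those of T3, T4 and T5. T4 overlapped with T3 and T5, and the T5 libraries lay below those of T3 by a narrow gap. SWEET10a was 2.34-fold lower at T5 than at T2 (log2 difference -1.23 ± 0.22, adjusted p = 5.89e-05 in edgeR, 28% of all genes called).

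SWEET10b in Wt moved less. It was at 280, 235 and 265 TMM CPM at T2, at 259, 270 and 251 at T3, at 175, 200 and 292 at T4 and at 178, 173 and 223 at T5. The T5 libraries lay below those of T2, by 0.44 ± 0.17 on the log2 scale, which missed the threshold (edgeR adjusted p = 0.0507). Without T5 replicate 3 it passed (-0.59, adjusted p = 0.0276), as it did in DESeq2 (adjusted p = 0.0179). The sum of both copies fell by 0.54 at T5 (adjusted p = 0.0172), a call lost in 4 of the 6 fits that left out 1 library (adjusted p up to 0.0759). SWEET10a's share of the pair was accordingly 15.6, 16.7 and 16.7% at T2 and 6.96 to 10.9% in the 9 libraries of T3 to T5.

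R and G embryos differed from Wt in this course: the T5 minus T2 difference of SWEET10a was larger than in Wt by 1.53 ± 0.31 in R (edgeR adjusted p = 0.0024, 3.38% of all genes called) and by 1.99 ± 0.31 in G (adjusted p = 3.49e-05, 7.25% called). In R, SWEET10a was at 67.7, 81.7 and 65.3 TMM CPM at T2, at 61.1, 79.7 and 87.3 at T3, at 81.4, 80.1 and 76.5 at T4 and at 81.6, 85.9 and 99.2 at T5. T2 and T3 overlapped with all other times, the T5 libraries lay just above those of T4, and T5 against T2 gave a log2 difference of 0.31 ± 0.22 (edgeR adjusted p = 0.37, 14.6% of all genes called). In G it was at 53.5, 45.3 and 43.6 TMM CPM at T2, at 41.3, 42.5 and 40.2 at T3, at 42.9, 63.7 and 72.1 at T4 and at 95.8, 60.1 and 85.8 at T5. All 3 T5 libraries lay above those of T2, and SWEET10a rose 1.70-fold (0.77 ± 0.21, adjusted p = 0.0075, 24.6% called). That rise missed the threshold without G T5 replicate 1 (0.63, adjusted p = 0.0514) and was 0.94 (adjusted p = 0.0026) without replicate 2, the library with no transgene counts.

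SWEET10b followed the same order of lines by mean level, except at T3. There G, at 216 to 236 TMM CPM, lay below Wt, at 251 to 270 TMM CPM, with no overlap, while SWEET10a was higher in G than in Wt. Neither T3 difference of G from Wt was called. In R, SWEET10b was at 313, 308 and 373 TMM CPM at T2 and at 344, 468 and 488 at T5, which overlapped (0.39 ± 0.17, edgeR adjusted p = 0.127). In G it was at 262, 241 and 206 TMM CPM at T2 and at 436, 437 and 391 at T5, with no overlap. It rose 1.78-fold in G (0.84 ± 0.17, adjusted p = 0.0004). At T3 and T4 SWEET10b ran from 327 to 426 TMM CPM in R and from 216 to 367 TMM CPM in G.

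**Figure D3:**
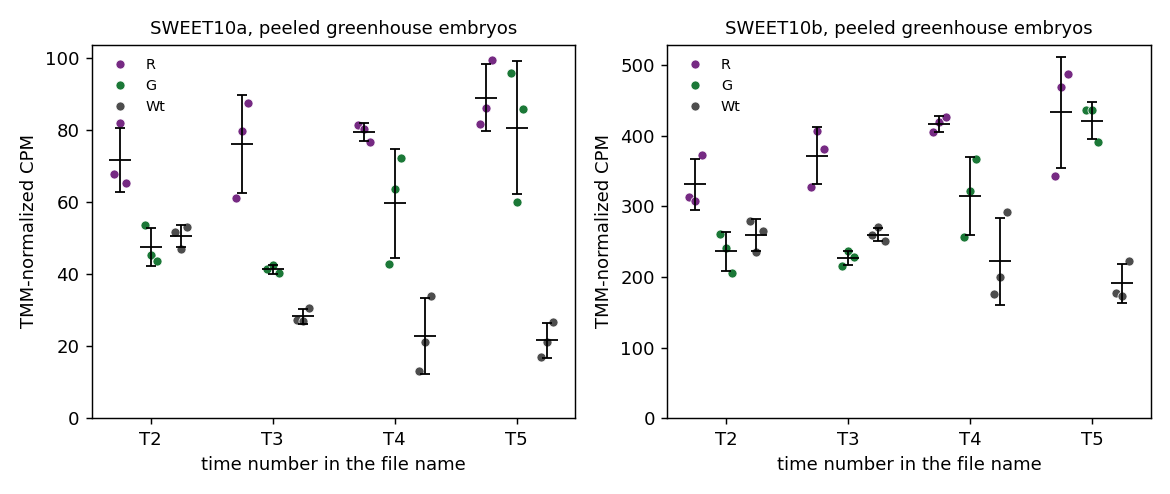
TMM CPM of SWEET10a and SWEET10b in the 36 greenhouse embryo libraries, by the time and line of the file names. Points are libraries and bars are the mean ± SD of 3. At T5 SWEET10a lies at 81.6 to 99.2 in R and 60.1 to 95.8 in G, above the 16.9 to 26.7 of Wt.

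Set against Wt of the same file-name time, the difference of both genes was larger at T4 and T5 than at T2, in both transgenic lines. For SWEET10a, R against Wt was 0.50 ± 0.22 at T2 (edgeR adjusted p = 0.099, 20% of all genes called, with a call gained at 0.0388 with only libraries over 10 M counts and at 0.0065 with only the libraries compared), 1.44 ± 0.22 at T3 (adjusted p = 8.6e-06, 29.5%), 1.79 ± 0.22 at T4 (adjusted p = 1.08e-07, 40.9%) and 2.03 ± 0.23 at T5 (adjusted p = 1e-08, 35%), all on the log2 scale. At T5 this is 4.09-fold. All R libraries lay above all Wt libraries at each of the 4 times. For SWEET10b, R against Wt was 0.35 ± 0.17 at T2 (adjusted p = 0.15), 0.52 ± 0.17 at T3 (adjusted p = 0.0219), 0.90 ± 0.17 at T4 (adjusted p = 8.03e-05) and 1.18 ± 0.17 at T5 (adjusted p = 2.15e-06). At T3 the SWEET10b call was lost without any 1 of 5 of the 6 libraries (all but R T3 replicate 1), with adjusted p-values up to 0.101.

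G against Wt was near level at T2 and larger at T4 and T5. For SWEET10a it was -0.09 ± 0.21 at T2 (edgeR adjusted p = 0.86, 10.1% of all genes called), 0.55 ± 0.22 at T3 (adjusted p = 0.068, 21.3%, a call gained at 0.0271 with only libraries over 10 M counts, at 0.000690 with only the libraries compared and at 0.0498 with no filter), 1.37 ± 0.22 at T4 (adjusted p = 9.89e-06, 27.7%) and 1.90 ± 0.22 at T5 (adjusted p = 3.47e-08, 32.5%), or 3.74-fold at T5. G and Wt overlapped at T2 and were apart at T3, T4 and T5. For SWEET10b, G against Wt was -0.14 ± 0.17 at T2 and -0.20 ± 0.17 at T3, neither called, then 0.50 ± 0.17 at T4 (adjusted p = 0.0268) and 1.14 ± 0.17 at T5 (adjusted p = 3.99e-06). The T4 libraries overlapped, and the T4 call was lost without replicate 1 or 2 of Wt or replicate 2 or 3 of G, where the difference was 0.36, 0.43, 0.49 and 0.38 (adjusted p = 0.16, 0.103, 0.0682 and 0.152). At T5 the call held without G T5 replicate 2, at 2.07 for SWEET10a and 1.11 for SWEET10b.

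Averaged over the 4 times and with TMM scaling, both genes were higher in R and in G than in Wt. R against Wt was 1.44 ± 0.11 for SWEET10a (edgeR adjusted p = 4.32e-13) and 0.74 ± 0.09 for SWEET10b (adjusted p = 5.98e-09), where 60.6% of all genes were called. G against Wt was 0.93 ± 0.11 for SWEET10a (adjusted p = 8.71e-09) and 0.33 ± 0.09 for SWEET10b (adjusted p = 0.0020), where 46.5% were called. With such shares of all genes called, a call alone says little of these 2 genes. R stood above G by 0.50 ± 0.11 for SWEET10a (adjusted p = 0.0004) and 0.41 ± 0.09 for SWEET10b (adjusted p = 0.0003), with 37.5% of genes called. The sum of both copies was higher by 0.83 in R and by 0.40 in G than in Wt (adjusted p = 6.07e-10 and 0.000233). The R and G comparisons share the Wt libraries. Without G T5 replicate 2, G against Wt was 0.98 and 0.32 for SWEET10a and SWEET10b, and R against G was 0.46 and 0.41.

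The direction of several R values depends on how libraries are scaled. In R the 10 most abundant genes held 33.9 to 81.9% of all counts (median 71.8%), against 19.1 to 41.7% in G and 27.9 to 42.8% in Wt. With library totals in place of TMM, the median log2 difference of all genes between R and Wt came out lower than with TMM by 1.18 over times, and by 1.49, 1.09, 1.52 and 0.61 from T2 to T5. On that scale SWEET10a in R was at 0.27 against Wt over times (adjusted p = 0.169) and SWEET10b at -0.42 (adjusted p = 0.0332), a turn of direction. Relative to the median of all genes these values were 1.52 and 0.83. R against G turned too, to -0.81 and -0.89, or 0.55 and 0.48 relative to the median. At T5 SWEET10a in R was higher than in Wt on both scales (1.39 with library totals, edgeR adjusted p = 0.0076). In G the totals moved the median by 0.13 over times, SWEET10a was at 1.08 (adjusted p = 1.38e-05) and SWEET10b at 0.47 (adjusted p = 0.0631).

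**Figure D4:**
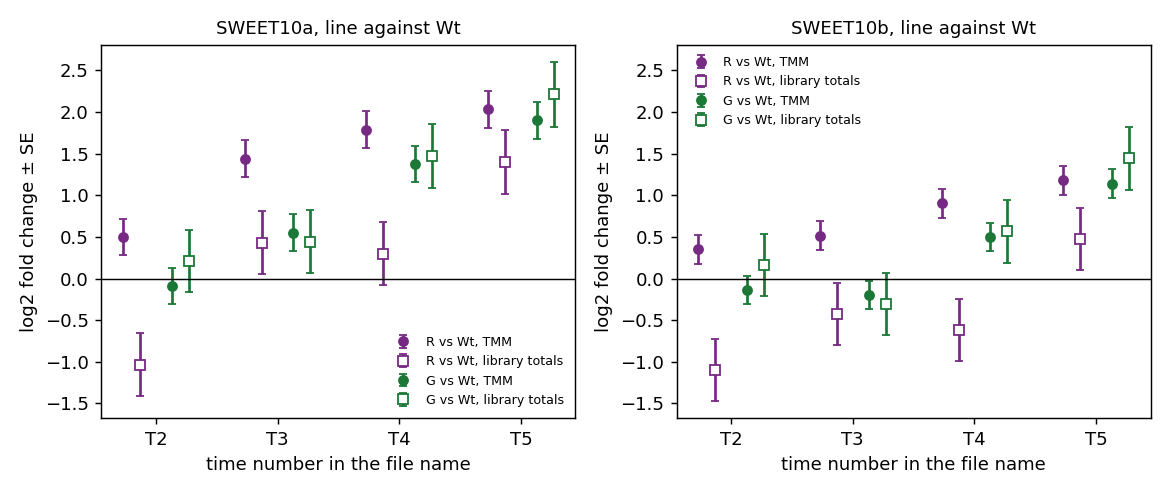
Log2 difference from Wt of SWEET10a and SWEET10b in R and G embryos at each file-name time, with its SE. Filled points use TMM scaling and open points library totals. With TMM, SWEET10a in R runs from 0.50 at T2 to 2.03 at T5; with totals it is -1.04 at T2 and 1.39 at T5, and SWEET10b in R is below 0 from T2 to T4.

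The share of SWEET10a in the pair, which no scaling touches, was higher in R and G than in Wt at T3, T4 and T5. From T3 to T5 SWEET10a held 15.2 to 19.2% of the pair in R and 12.1 to 18.01% in G, against 6.96 to 10.9% in Wt, with no overlap of R or G with Wt. The lowest G value, 12.1%, came from G T5 replicate 2, the library with no transgene counts. At T2 it held 17.8, 21.0 and 14.9% in R and 17.0, 15.8 and 17.5% in G, against 15.6, 16.7 and 16.7% in Wt, and the 3 lines overlapped. Over the 4 times, the ratio of SWEET10a to SWEET10b was 1.66-fold higher in R and 1.54-fold higher in G than in Wt (exact permutation within times, 24 libraries each, 2-sided p = 6.25e-05 in both, adjusted p = 0.000104 over 5 ratio tests). R against G did not pass the same test, at 1.08-fold (exact permutation p = 0.192).

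Sorted by their labels, the greenhouse libraries gave no call for either gene. Labelled WD-1 against labelled WT over the 4 days was 0.20 ± 0.11 for SWEET10a and 0.22 ± 0.09 for SWEET10b (edgeR adjusted p = 0.34 and 0.145, 3.38% of all genes called). Labelled WD-2 against labelled WT was 0.07 ± 0.11 and 0.08 ± 0.09 (adjusted p = 0.82 and 0.71, 3.71% called). At unadjusted p under 0.05 in edgeR, SWEET10b passed in labelled WD-1 (unadjusted p = 0.0138), where the share of all genes at that level was not counted. The labels put 13 libraries where their AtWRI1 counts do not, so that each labelled line holds libraries with and without AtWRI1.

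Field WT seeds and greenhouse Wt embryos were set side by side in a model of their 21 libraries. SWEET10b was lower in field WT (log2 difference -0.59 ± 0.16, edgeR adjusted p = 0.0039, 56.1% of all genes called), and SWEET10a was not called (0.27 ± 0.17, adjusted p = 0.166). An exact permutation test on log2(CPM + 0.5) gave -0.39 for SWEET10b (p = 0.243) and 0.52 for SWEET10a (p = 0.092), where libraries are scaled by their totals. The same exact permutation test on log2(TMM CPM + 0.5), added after seeing the data, gave -0.63 (p = 0.0055) and 0.29 (p = 0.267). SWEET10a passed the edgeR threshold without field WT R6 replicate 3 (0.41, adjusted p = 0.025) or without Wt T4 replicate 3 (0.38, adjusted p = 0.0364). The seed coat, the site, the age, the RNA kit and the number of seeds per library differ together here and cannot be told apart.

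Ranked by mean level, neighbouring groups were mostly not separable. Field SWEET10a ran from 91.3 ± 12.6 TMM CPM in WD-1 at R5/6 to 33.0 ± 16.7 in WD-1 at R5 (SD, n = 3 each), and the libraries of all 8 pairs of neighbours overlapped. Field SWEET10b ran from 361 ± 97.5 TMM CPM in WT at R5 to 131 ± 33.5 in W-1 at R6, and neighbours overlapped in 7 of 8 pairs. In the greenhouse SWEET10a ran from 88.9 ± 9.21 TMM CPM in R at T5 to 21.6 ± 4.89 in Wt at T5, with overlap in 9 of 11 pairs of neighbours, and the 2 gaps lay on either side of G at T3 (41.3 ± 1.19). SWEET10b ran from 433 ± 78.3 in R at T5 to 191 ± 27.4 in Wt at T5, with overlap in 11 of 11.

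The copies went together more closely in embryos than in field seeds. As a description over libraries that share line, stage and depth, Pearson's r of log2 TMM CPM between the copies was 0.88 over the 36 greenhouse libraries and 0.40 over the 27 field libraries. In the greenhouse SWEET10b ranked 48 among 15072 genes by likeness to SWEET10a, and SWEET10a ranked 13 by likeness to SWEET10b. In the field these ranks were 1768 and 2368 of 19457. The genes most like SWEET10a were GLYMA_09G251700 (r = 0.84) and GLYMA_13G259400 (r = 0.81) in the field and GLYMA_11G215500 (r = 0.94) and GLYMA_19G190100 (r = 0.93) in the greenhouse. Those most like SWEET10b were GLYMA_04G022500 (r = 0.93) and GLYMA_09G102800 (r = 0.91) in the field and GLYMA_09G018600 (r = 0.92) and GLYMA_18G276800 (r = 0.91) in the greenhouse. These identifiers carry no gene names in the sources used here.

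Among embryos that carry the transgene, no Pearson's r between AtWRI1 and the copies passed the adjustment. The p-values of Spearman's rho, also by permutation, were not adjusted. Over the 11 G libraries, Pearson's r between log2 AtWRI1 and the ratio of SWEET10a to SWEET10b was -0.73 (permutation p = 0.0105, adjusted p = 0.0633 over 6 relations; Spearman's rho -0.78, p = 0.0067). It was -0.62 without the 2 libraries farthest from the median AtWRI1. Over the 12 R libraries the same r was -0.13 (permutation p = 0.693, adjusted p = 0.832; rho -0.20, p = 0.53). Without the 2 R libraries farthest from the median AtWRI1 it was -0.58, so that the R value depends on these 2. For the level of SWEET10a, r was -0.39 in G and 0.03 in R, and for SWEET10b -0.22 in G and 0.13 in R, with permutation p-values of 0.239, 0.929, 0.518 and 0.69. Without the 2 farthest libraries of the line, r was -0.41 and -0.37 for SWEET10a and -0.29 and 0.15 for SWEET10b, in G and R. The G and R libraries span 4 times, within which 2 or 3 libraries per line are too few for a value of their own.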

How the data were processed

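Estimated counts of reads per gene, not normalized, were deposited by the authors in 1 table per library, per the file headers. Per the submitters' processing notes, the tools were R 3.6.3, sleuth 0.30.0, kallisto 0.43.1 and FastQC 0.11.5, with no role or order. Genome build and annotation: not given in the sources used here. Between 55.4 and 87.1% of the values of a table were whole, and all were rounded to whole numbers for testing. An unnamed entry, with counts in 1 library and 4 at most, did not enter totals or tests. No 2 libraries held identical values.

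Differences were tested with edgeR 4.0.16 in R 4.3.3: filterByExpr, TMM scaling, a 2-sided quasi-likelihood F-test, and p-values adjusted by Benjamini and Hochberg's method across the whole table, with a threshold of 0.05. One model held the 27 field libraries in 9 labelled groups (38914 genes), one the 36 greenhouse libraries in 12 groups by file name (34548 genes), one the same libraries by label, and one 21 WT libraries (35799 genes). Each standard error is the log2 difference divided by the square root of F. Ratios of the copies, with 0.5 added to each count, were tested by exact permutation over libraries. Other steps used Python 3.11.15, numpy 2.4.6, pandas 2.3.3, scipy 1.17.1 and matplotlib 3.10.9, and DESeq2 1.42.0 served as an alternative. The edgeR test was tested on simulated data for WD-1 against WT and G against Wt. The permutation tests, the correlations and the T5 minus T2 differences were not.

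Both genes are named always, as are the transgenes. For likeness, the genes with the highest Pearson's r among those of at least 5 TMM CPM on average are named, 2 of the 5 taken per set. The identifiers matched 0 of the 59048 genes of the reference table, so lists of pathway genes and of tissue markers could not be tied to genes and were not used. The members, lists and tests were chosen with earlier results of these data known. Library totals, sums of both copies, the greenhouse ratio tests, the T5 minus T2 differences and the AtWRI1 relations were added after seeing the data. P-values measure the spread between plots or plants of 1 season.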

Additional observations from a re-analysis of the deposited data

Results flagged for a closer look

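The difference of both genes between the greenhouse lines and Wt was not the same at T5 and T2, by a test of the difference itself that was added after seeing the data. G against Wt was larger at T5 than at T2 by 1.99 ± 0.31 for SWEET10a and by 1.28 ± 0.24 for SWEET10b on the log2 scale (edgeR adjusted p = 3.49e-05 and 0.000588, 7.25% of all genes called). R against Wt was larger by 1.53 ± 0.31 for SWEET10a and by 0.83 ± 0.24 for SWEET10b (adjusted p = 0.0024 and 0.0498, 3.38% called). For the sum of both copies the values were 1.37 in G and 0.92 in R (adjusted p = 0.000305 and 0.0274). The sum in R missed the threshold in 8 of the 12 fits that left out 1 library (adjusted p up to 0.1). Without G T5 replicate 2, which holds no transgene counts, the G values were 2.16 and 1.25 (adjusted p = 1.38e-05 and 0.0019). The SWEET10b value of R missed the threshold in 9 of the 12 fits that left out 1 library, where it ran from 0.71 to 0.97 over all 12, with adjusted p-values from 0.0209 to 0.157. The R and G values share the Wt libraries.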

How the results depend on the processing

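Each alternative changed 1 choice, except that DESeq2 brings its own size factors and filter, and the permutation test of CPM leaves out TMM. Library totals in place of TMM, chosen after seeing the data, turned the direction of SWEET10a between R6 and R5 in W-1 (-0.86), of SWEET10b in R against Wt over times (-0.42), at T2 (-1.10), T3 (-0.43) and T4 (-0.62), of SWEET10a in R against Wt at T2 (-1.04), of R against G for SWEET10a (-0.81) and SWEET10b (-0.89), and of the sum of both copies in R against Wt over times (-0.33), at T2 (-1.09), T3 (-0.32) and T4 (-0.50) and in R against G (-0.87). With totals, calls were lost for SWEET10a in WD-1 between R6 and R5 (0.42), in R against Wt over times (0.27), T3 (0.43) and T4 (0.30) and in G between T5 and T2 (0.46), and for SWEET10b in G against Wt over times (0.47) and T4 (0.56), R against Wt at T5 (0.47), G between T5 and T2 (0.53) and field WT against Wt (-0.34), where SWEET10a gained one (0.53). Totals move all genes together: relative to the median of all genes in the same fit, SWEET10a in R at T2 was 0.51 and SWEET10b in R at T2, T3 and T4 was 0.44, 0.71 and 0.96. Also lost with totals were the T5 minus T2 differences of G for SWEET10a (2.00), SWEET10b (1.28) and the sum (1.37) and of R for SWEET10b (1.57) and the sum (1.69), and the sum in G at T4 (0.68), R at T5 (0.60), Wt and G between T5 and T2 (-0.85 and 0.52) and field WT against Wt (-0.20). The sum gained a call between R6 and R5 with totals in WT (-1.75) and W-1 (-1.89), with libraries over 10 M counts in WT (-1.78) and with only the libraries compared in W-1 (-0.69), and with the last also in R at T2 (0.41). The T5 minus T2 difference of R for SWEET10b was lost with RLE (0.82), no filter (0.84), libraries over 10 M counts (0.73) and only the libraries compared (0.83), that of the sum with libraries over 10 M counts (0.82), and the sum in G at T4 with the last 2 (0.45 and 0.64). Only libraries over 10 M counts lost SWEET10a in WD-1 between R6 and R5 (0.62), the ratio of lines against WT (0.37 on the log2 scale) and SWEET10b in G at T4 (0.36), and gained SWEET10a in WD-1 at R5/6 (1.11), G at T3 (0.61), R at T2 (0.50) and SWEET10b in Wt between T5 and T2 (-0.44). Only the libraries compared lost SWEET10b in WT between R6 and R5 (-1.03), G at T4 (0.53) and R at T3 (0.55), and gained SWEET10a in WD-1 at R5/6 (1.01), G at T3 (0.55) and R at T2 (0.54) and SWEET10b in Wt between T5 and T2 (-0.47). No filter on low counts gained SWEET10a in G at T3 (0.57) and lost SWEET10b in R at T3 (0.49). Results that missed the threshold also turned direction. With totals these were SWEET10a in WT between R6 and R5 (-0.78) and in the W-1 effect between stages (-0.076), SWEET10b in that effect (-0.18) and in WD-1 against WT over stages (0.11), SWEET10a and SWEET10b in G at T2 (0.21 and 0.17) and in labelled WD-2 (-0.28 and -0.27), and the sum in WD-1 between R6 and R5 (-0.58), in the W-1 effect between stages (-0.13), in WD-1 over stages (0.16) and in G at T2 (0.17). With only libraries over 10 M counts they were SWEET10a in WT between R6 and R5 (-0.68) and in W-1 over stages (0.043) and at R6 (0.85), SWEET10b in W-1 at R6 (0.56) and in WD-1 over stages (0.35), and the sum in WD-1 between R6 and R5 (-0.42) and over stages (0.39) and in W-1 at R6 (0.65). SWEET10a in W-1 at R5/6 turned with RLE (0.0072), DESeq2 (0.014) and the replicate block (0.0045), and the W-1 effect between stages with RLE and DESeq2 for SWEET10b (-0.10 in both) and the sum (-0.044 and -0.048). Leaving out 1 library gave, for SWEET10a, -0.034 to 0.60 in WT between R6 and R5, -0.17 to 0.15 and -0.47 to 0.16 in W-1 at R5/6 and R6, -0.22 to 0.42 in the W-1 effect between stages, -0.15 to 0.49 in WD-1 at R6 and -0.033 to 0.13 in labelled WD-2. For SWEET10b it gave -0.37 to 0.33 in WD-1 between R6 and R5, -0.34 to 0.24 in the W-1 effect, and -0.20 to 0.030 and -0.14 to 0.44 in WD-1 over stages and at R6, and for the sum -0.13 to 0.57, -0.28 to 0.31, -0.16 to 0.079 and -0.14 to 0.44 in the same 4. RLE size factors and DESeq2 each gained SWEET10b in Wt between T5 and T2 (-0.47 in both), and the permutation test of CPM lost SWEET10b in field WT against Wt (-0.39), as library totals did, while the same test of TMM CPM kept it (-0.63). Leaving out 1 library gave -1.21 to -0.63 for SWEET10b between R6 and R5 in WT, -1.15 to -0.78 in W-1, 0.36 to 0.75 in G at T4, 0.45 to 0.60 in R at T3 and -0.59 to -0.37 in Wt between T5 and T2, 0.63 to 0.94 for SWEET10a in G between T5 and T2 and 0.19 to 0.41 for SWEET10a in field WT against Wt. Shared replicate numbers were not taken to pair the libraries, since deviations correlated above 0.1 in only 15 of 108 field pairs and 46 of 198 greenhouse pairs. All 3 numbers did so in 1 of 36 pairs of field groups and 3 of 66 of greenhouse groups, and 11 of 27 and 19 of 36 libraries correlated best with their own number. None of these pairs of groups was set directly against each other in a test. Pairs such as field WD-1 at R5 and R5/6, or Wt at T4 and T5, do enter the averages over stages or times. A replicate block moved SWEET10a in G at T3 (0.55, adjusted p = 0.0491) and SWEET10b in Wt between T5 and T2 (-0.45, adjusted p = 0.0373) past the threshold, with no other call changed. The number of all genes called moved by over 1.5 times with library totals in 21 of 33 comparisons (for example 33514 against 12964 genes for R against G), with only the libraries compared in 6 of 32, over 10 M counts in 5 of 32, DESeq2 in 3 of 33, and no filter and the depth class in 1 each. The causes were not tested.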
